A study of Rattus norvegicus with 35 samples.

Results

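The genes described here encode complement and coagulation proteins that the liver makes and secretes into plasma. They were taken from a list of 41 gene symbols: a probe set belonged to a gene where the platform annotation gave it that symbol alone, and the probe set with the highest mean score over all arrays stood for the gene. By this rule 34 of the 41 genes were measured, among 14217 genes with a symbol of their own on the array. No probe set was annotated to F7, F11, F13b or Proz. Cfb and C2 had 4 probe sets annotated to both genes at once, and Kng1 had 1 annotated also to Kng2l1 and Kng2. These shared probe sets are given apart from the 34 genes.

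The animals were Wistar Han IGS rats. Feed carried 1 of 3 triazole fungicides, from day 6 of gestation until postnatal day 92, and each array held RNA of 1 rat. The groups were 7 controls on 0 ppm, 5 rats on 500 ppm myclobutanil (M500), 4 on 2000 ppm myclobutanil (M2000), 3 on 500 ppm propiconazole (P500), 4 on 2500 ppm propiconazole (P2500), 5 on 500 ppm triadimefon (T500) and 4 on 1800 ppm triadimefon (T1800). These are the 32 arrays with values of 35 listed. Of the other 3, 1 belonged to M2000 and 2 to P500. Arrays of a group are called replicates by the submitters' design text, and no label tells whether littermates were used. Values are the deposited scores, 1 per probe set and array. No source used here gives their scale, log base or centring, so a difference of scores is not a log2 fold change, and the scores of different probe sets were not set against each other. Errors after ± are standard deviations over the arrays of a group, with n as just listed.

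The coagulation cascade is a chain of serine proteases circulating as inactive precursors, which ends in thrombin and a fibrin clot. Antithrombin, the protein C pathway and plasmin hold it in check. Complement works in the same manner: C1r and C1s, or the mannose-binding lectins with their proteases, lead to cleavage of C3, and C5 to C9 then assemble the membrane attack complex. Hepatocytes are the main source of nearly all these proteins, and the factors HNF1, HNF4, C/EBP, FOXA and, in the acute phase, STAT3 are known to act on their promoters.

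The tissue label was checked first, because the labels are at odds: testis stands in the protocol for RNA extraction, and liver in the titles and the labelling protocol. All 7 measured hepatocyte markers, albumin (Alb) and Hnf4a among them, had scores of at least 2.62 on every array. Of 9 testis markers, 8 had mean scores between -0.150 and 0.394. Some of these 8 also varied between arrays: Tnp1 ran from -0.343 to 1.44, Tnp2 from -0.319 to 0.756 and Ldhc from -0.347 to 0.535. The ninth, the sperm protamine Prm1, averaged 1.11 and ran from -0.329 to 3.15 over arrays. The samples were therefore treated as liver. In bulk RNA, fewer cells of a type and less RNA per cell cannot be told apart.

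The promoters of 3 genes are shown as examples, chosen for the reasons given next. No result below rests on a promoter sequence. On the deposited scores C6 moved against most of the other genes in the T1800 group. C1r was among the genes of smallest adjusted p between the triadimefon doses, and C8a carried the most searched motifs. Each sequence is the 250 bases before the annotated start, 5′ to 3′ on the gene's strand, from RefSeq on build GRCr8: C6 from chr2:55573383-55573632 (plus strand), C1r from chr4:159098763-159099012 (plus strand) and C8a from chr5:124866632-124866881 (minus strand). Capitals mark motif matches.
C6: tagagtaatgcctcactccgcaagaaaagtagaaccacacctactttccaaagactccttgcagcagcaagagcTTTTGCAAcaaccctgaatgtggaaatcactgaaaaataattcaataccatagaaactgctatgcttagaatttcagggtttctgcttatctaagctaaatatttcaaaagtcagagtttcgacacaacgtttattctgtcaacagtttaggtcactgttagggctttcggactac
C1r: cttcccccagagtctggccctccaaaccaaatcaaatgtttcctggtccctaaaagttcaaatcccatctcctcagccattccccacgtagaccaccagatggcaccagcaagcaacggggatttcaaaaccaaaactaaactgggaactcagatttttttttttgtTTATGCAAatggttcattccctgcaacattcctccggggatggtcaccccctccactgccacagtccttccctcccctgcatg
C8a: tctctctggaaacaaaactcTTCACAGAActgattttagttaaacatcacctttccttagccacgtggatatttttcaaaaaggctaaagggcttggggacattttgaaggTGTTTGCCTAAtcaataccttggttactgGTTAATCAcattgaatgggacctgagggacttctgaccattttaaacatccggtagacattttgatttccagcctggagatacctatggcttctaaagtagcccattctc
The motifs were TATAAA for the TATA box, GTTAATNA for HNF1, TTGCNNAA for C/EBP, CAAAGTCC for HNF4, TTCNNNGAA for STAT3 and TGTTTAC or TGTTTGC for FOXA. They were searched on both strands of the 300 bases from 250 before to 50 after the start. A promoter was at hand for 27 of the 34 measured genes. The C/EBP letters occurred in 33.3% of these 27 promoters and in 10.6% of all 33469 rat promoters. The shares, in the same order, were 14.8% and 2.6% for HNF1, 22.2% and 8.4% for FOXA, 18.5% and 8.9% for STAT3, 3.7% and 14.2% for the TATA box, and 0 and 1.4% for HNF4. In C6 and C1r the capitals are C/EBP matches on the opposite strand. In C8a they are, from the 5′ end, a STAT3 match, a FOXA match overlapping a C/EBP match, and an HNF1 match. Matches of this kind are descriptions of the letters and not of a bound factor.

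Several members are neighbours in the genome. C1r and C1s lie next to each other on chromosome 4, C8a and C8b on chromosome 5, and F10 next to F7 and Proz on chromosome 16, with no other coding gene between them. Klkb1 and F11 are adjacent on chromosome 16, and C2 and Cfb on chromosome 20. C4bpa and C4bpb, on chromosome 13, have 1 coding gene between them.

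No complement or coagulation gene passed the adjusted p threshold of 0.05 (limma, Benjamini-Hochberg over all probe sets) in any treated group against controls. Of all 31042 probe sets tested, the share called was 1.17% for T1800, 0.254% for P2500, 0.0644% for M2000, 0.00966% for T500 and 0% for both P500 and M500. At an unadjusted p under 0.05, the counts among the 34 genes were 4 for T1800, 0 for P2500, 3 for M2000, 6 for T500 and 0 for P500 and M500. Of all probe sets, 10.8% had such a p for T1800, 19.9% for P2500, 24.2% for M2000, 29.3% for T500, 9.23% for P500 and 4.13% for M500.

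The 34 genes mostly shifted to the same side of the controls within a group, M500 apart. Their median difference from controls was 0.224 in T1800, with 32 of 34 genes higher. It was -0.261 in P2500, -0.392 in M2000, -0.408 in T500 and -0.289 in P500, with 30, 32, 32 and 31 genes lower. In M500 it was 0.0344, with 20 genes higher and 14 lower. The median over all probe sets moved far less, between -0.0438 and 0.0185. Among 826 other probe sets with a mean score above 2.5, which includes much of what liver expresses strongly, the medians were 0.195, -0.175, -0.312, -0.320, -0.193 and 0.0539 for T1800, P2500, M2000, T500, P500 and M500. The 34 genes thus moved the same way as other bright probe sets in every one of these 6 groups. The typical standard error of a gene's difference was 0.235 for T1800.

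The shift belonged to single arrays as much as to groups. The mean score of the 34 genes, set against the control mean, ran from -0.322 to 0.401 over the 7 controls. In M500 it ran from -0.524 to 1.21, and replicate 1 alone gave the highest value, with the bright probe sets of that array shifted by 1.16. In T1800 the 4 arrays gave 0.690, -0.0656, 0.277 and -0.0387. T500 arrays gave -0.159, -0.536, -0.273, -0.397 and -0.412, and so lay below all 4 T1800 arrays. The shift of the genes differed from that of the bright probe sets by -0.111 to 0.213 over the 32 arrays.

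**Figure D1:**
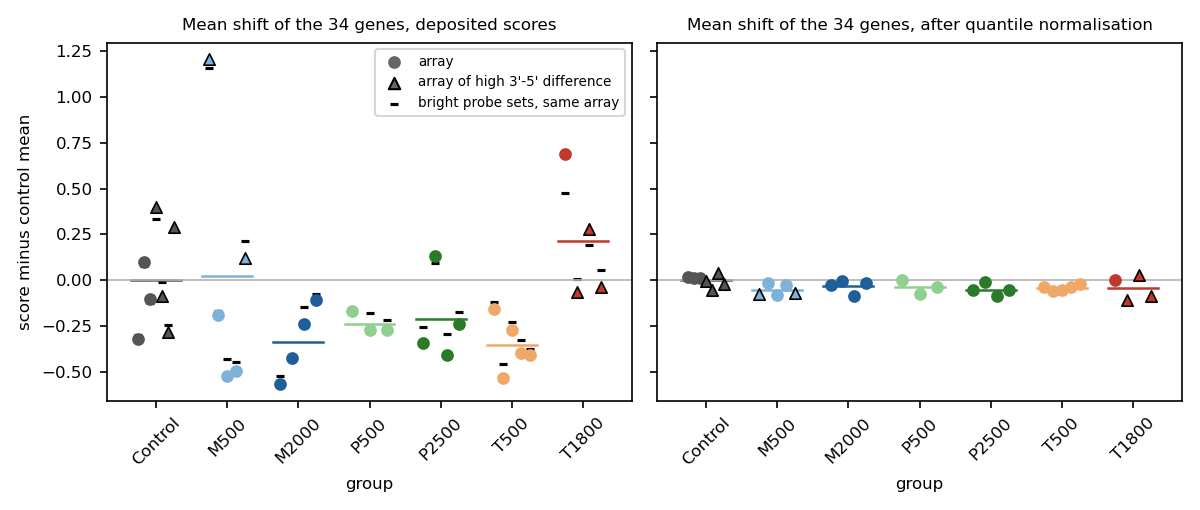
Mean score of the 34 genes on each array minus the control mean (y axis, score) by group (x axis), on the deposited scores (left) and after quantile normalisation (right). Circles and triangles are arrays, triangles those with a GAPDH 3′-5′ difference above 0.9, horizontal lines are group means and black dashes are the bright probe sets of the same array. Deposited shifts span -0.570 to 1.21, and normalised shifts span -0.107 to 0.0383.

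Over all arrays the shift also went with RNA integrity as the arrays report it, but not within every group. Signal from the 3′ minus the 5′ end of the control transcripts GAPDH and β-actin grows as RNA shortens, and its mean ran from 0.469 to 2.45 over arrays. GAPDH alone exceeded 0.9 on 9 arrays, namely 4 of 7 controls, 2 of 5 M500 and 3 of 4 T1800 arrays. Their mean shift was 0.203 ± 0.436 (SD, n = 9), against -0.241 ± 0.274 (SD, n = 23) on the others. Within the controls, 27 of the 34 genes were higher on the 4 arrays of high difference, by a median of 0.222. Within M500, 33 of 34 were higher on the 2 such arrays, by a median of 1.13. The pattern was not general. Control replicates 5 and 6 were of high difference and had mean shifts of -0.0860 and -0.281. In T1800 the largest shift, 0.690, fell on replicate 1, which was not of high difference by GAPDH alone (0.729). Its mean 3′-5′ difference with β-actin was 1.17, beside 1.16 for replicate 3, which counted as high. Replicate 1 is thus no clear exception. The other 3 T1800 arrays, all of high difference, gave -0.0656, 0.277 and -0.0387. Animal numbers above 3000 belonged to 3 controls and 3 T1800 rats, and to no rat of another group. All of these were arrays of high difference, and the 3 controls without a high difference were all numbered below 3000. Among controls, here and below, the 3′-5′ difference and the animal-number series can hardly be told apart, and in T1800 they cannot. In a fit with this difference as covariate, the median difference of the 34 genes from controls was 0.140 in T1800, 0.0924 in P2500, -0.0244 in M2000, -0.00776 in T500, 0.0463 in P500 and 0.0830 in M500, and 0 genes were called in each. Without the 9 arrays, T1800 kept only replicate 1, whose mean 3′-5′ difference was 1.17 and whose spread is then taken from the other groups. On that basis 23 of the 34 genes (67.6%) were called between T1800 and controls, with a median of 0.849, and 17.7% of all probe sets were.

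Quantile normalisation, which gives every array the same distribution of scores, removed most of the common shift. The median difference of the 34 genes became -0.0445 in T1800, -0.0983 in P2500, -0.0639 in M2000, -0.0822 in T500, -0.0697 in P500 and -0.0711 in M500. The typical standard error was then 0.0804 for T1800. On this scale 11, 12, 11, 11, 10 and 7 of 34 genes were higher, in the same order of groups. The genes called were 1 in T1800 (C6, lower) and 0 in the other 5 groups. The share of all probe sets called was 1.39% for T1800, 1% for P2500, 0.254% for M2000, 0.132% for T500, 0.00644% for P500 and 0.00322% for M500. At an unadjusted p under 0.05, limma on these values gave 9, 9, 6, 10, 4 and 2 of the 34 genes, against 10.8%, 18.3%, 19.7%, 19.9%, 9.01% and 5.18% of all probe sets. Normalised differences are given below for each complement or coagulation gene called.

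**Figure D2:**
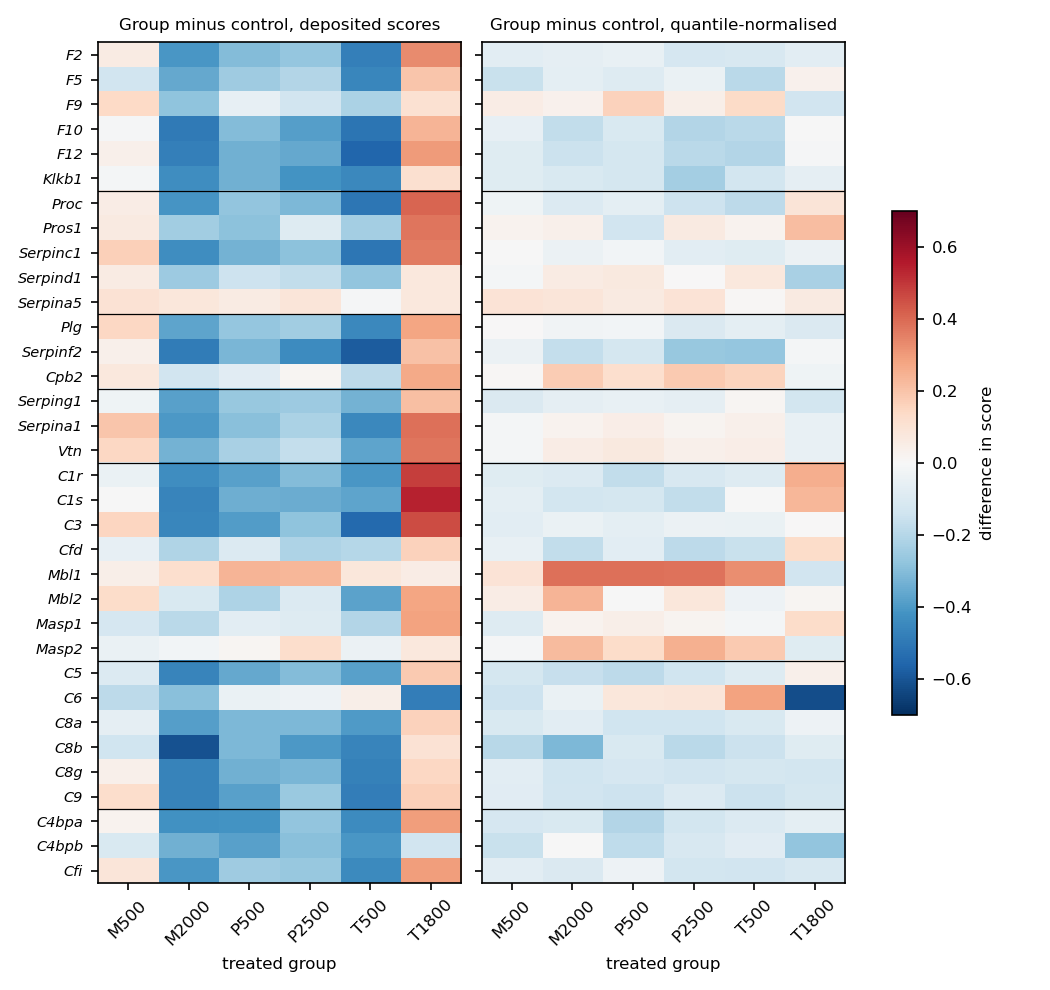
Difference in score between each treated group (columns) and controls for the 34 genes (rows, ordered by role and separated by black lines), on deposited scores (left) and after quantile normalisation (right); red is higher and blue lower than controls. The deposited columns other than M500 are nearly of 1 colour each, from a median of -0.408 in T500 to 0.224 in T1800. M500 is mixed, with 20 genes higher and 14 lower. C6 in T1800 is blue on both sides (-0.487 and -0.618).

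The comparison with most calls was that of the triadimefon doses. Between T1800 and T500, 10 of the 34 genes (29.4%) passed the threshold, 9 higher at T1800 and C6 lower. The arrays of the 2 doses did not overlap for those 9 and overlapped for C6. The share of all probe sets without overlap was not counted, in this or any other comparison, on either scale. As all T500 arrays lay below all T1800 arrays in the common shift too, a lack of overlap, here and below, does not set a gene apart. Of all probe sets 24.8% were called, and of the 826 bright ones 25.8%, so the share among the complement and coagulation genes was near the background. The median difference of the 34 genes was 0.632, against 0.0635 over all probe sets and 0.509 over bright ones. After quantile normalisation the median was 0.0463 and 5 genes were called (C1r, C1s, Proc and F12 higher, C6 lower), 14.7% of the genes against 9.67% of all probe sets. When the 3′-5′ difference entered as covariate, 0 of 34 were called and the median was 0.170, with 0.283% of all probe sets called. With the animal-number series as a block 1 gene (2.94%) was called, against 2.46% of all probe sets. Without T1800 replicate 1 the count was 4 (11.8%), while 24.4% of all probe sets were called. It was 6 (17.6%) without T500 replicate 2, with 17.3% of probe sets called, and 6 without T1800 replicate 4, with 14.3%.

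**Figure D3:**
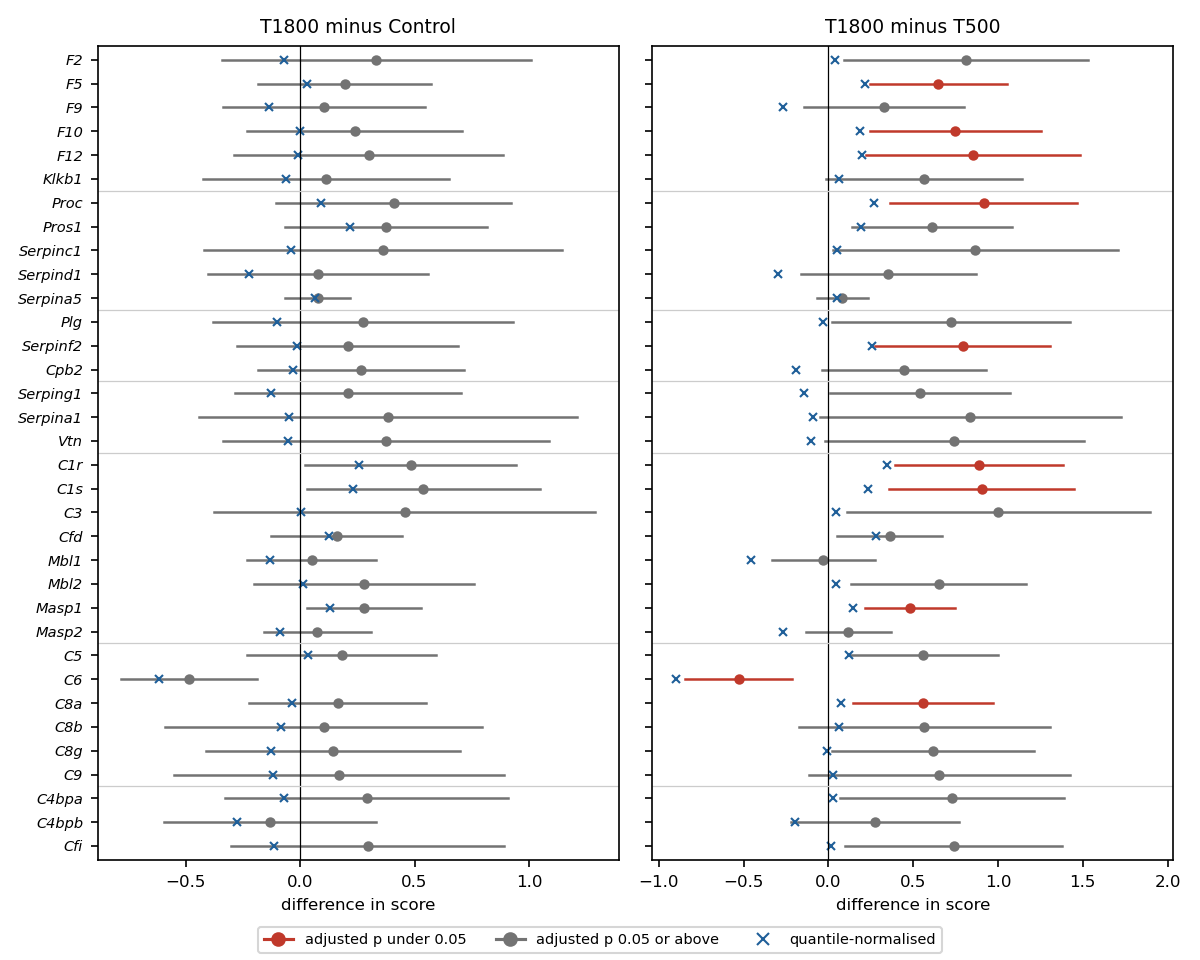
Difference in score with its 95% interval for the 34 genes (y axis, by role) between T1800 and controls (left) and between T1800 and T500 (right); red marks an adjusted p under 0.05 and blue crosses the difference after quantile normalisation. On the left 0 genes are red and on the right 10 are, 9 of them above 0 and C6 at -0.528.

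Among the clotting factors, 6 of the 10 listed were measured, and 3 were higher in T1800 than in T500. F5, the cofactor of the protease that cleaves prothrombin, scored 3.10, 2.88, 3.11 and 3.06 on the T1800 arrays. On the T500 arrays it scored 2.45, 2.27, 2.55, 2.20 and 2.47, and the controls had a lowest of 2.46, a median of 2.89 and a highest of 3.26. All T1800 values lay above all T500 values and inside the control range. The difference from T500 was 0.649 (SE 0.197, adjusted p = 0.022), and 0.218 (adjusted p = 0.104) after quantile normalisation. The other groups averaged 2.71 ± 0.616 (M500), 2.48 ± 0.124 (M2000), 2.59 ± 0.0647 (P500) and 2.64 ± 0.123 (P2500).

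F10, which becomes the protease that cleaves prothrombin, scored 4.33, 3.41, 3.67 and 3.50 in T1800. It scored 3.09, 2.88, 3.01, 2.91 and 3.01 in T500 and 3.04, 3.52 and 4.05 (lowest, median, highest) in controls. The T1800 and T500 arrays did not overlap, and the difference was 0.748 (SE 0.245, adjusted p = 0.030), or 0.188 (adjusted p = 0.053) after quantile normalisation. F12, which starts the contact pathway, scored 5.10, 3.85, 4.21 and 3.91 in T1800 and 3.62, 3.28, 3.45, 3.35 and 3.37 in T500. Its control values ran from 3.47 over a median of 3.89 to 4.63, so both triadimefon groups overlapped them. The difference between the doses was 0.852 (SE 0.307, adjusted p = 0.044), and 0.196 (adjusted p = 0.042) after quantile normalisation. The normalised F12 score was 0.135 higher on the 4 control arrays of high 3′-5′ difference than on the other 3 controls, and 0.0648 higher on such arrays in M500. In M500, M2000, P500 and P2500, the deposited F10 score averaged 3.48 ± 0.705, 2.99 ± 0.204, 3.18 ± 0.156 and 3.10 ± 0.182, and that of F12 4.00 ± 0.899, 3.49 ± 0.218, 3.63 ± 0.0826 and 3.61 ± 0.309.

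The remaining measured clotting genes, F2, F9 and Klkb1, did not pass in any comparison. F2 encodes prothrombin, and its score averaged 4.52 ± 0.443 in controls, 4.58 ± 0.979 in M500, 4.11 ± 0.249 in M2000, 4.22 ± 0.0626 in P500, 4.25 ± 0.397 in P2500, 4.04 ± 0.168 in T500 and 4.85 ± 0.733 in T1800. The T1800 difference from controls of 0.333 (95% interval -0.341 to 1.01) became -0.0723 after quantile normalisation. F9, the factor lacking in haemophilia B, averaged 3.82 ± 0.187, 3.96 ± 0.728, 3.54 ± 0.266, 3.76 ± 0.148, 3.69 ± 0.287, 3.60 ± 0.170 and 3.93 ± 0.274 in the same order. Klkb1, the precursor of plasma kallikrein, averaged 3.43 ± 0.417, 3.41 ± 0.878, 3.00 ± 0.217, 3.09 ± 0.0731, 3.01 ± 0.273, 2.97 ± 0.238 and 3.54 ± 0.0674. The shared Kng1 probe set, for the kininogens that plasma kallikrein cleaves, differed by 0.505 between T1800 and T500 (SE 0.299, adjusted p = 0.198). For Klkb1 the largest difference from controls was -0.454 in T500 (adjusted p = 0.210).

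Of the anticoagulant genes, 5 of 6 were measured and 1 passed. Proc encodes protein C, which once activated degrades the clotting cofactors. It scored 5.05, 3.77, 4.09 and 3.79 on the T1800 arrays, 3.43, 3.08, 3.33, 3.21 and 3.26 on the T500 arrays and from 3.34 over a median of 3.61 to 4.20 in controls. The triadimefon groups did not overlap, and the difference was 0.916 (SE 0.269, adjusted p = 0.019), or 0.272 (adjusted p = 0.029) after quantile normalisation. On the normalised scale the 4 control arrays of high 3′-5′ difference scored 3.70 to 3.89 for Proc and the other 3 controls 3.42 to 3.62, higher by a mean of 0.239 and without overlap. In M500 the same comparison gave 0.0054. The deposited other means were 3.82 ± 0.741 (M500), 3.35 ± 0.214 (M2000), 3.49 ± 0.0508 (P500) and 3.45 ± 0.246 (P2500). Against controls the T1800 difference was 0.408 (SE 0.251, adjusted p = 0.619).

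Pros1, the protein S cofactor of activated protein C, scored 3.00, 2.97, 2.97 and 2.83 in T1800 and 2.33 ± 0.112 in T500, and the groups did not overlap. The difference of 0.613 (SE 0.230) had an adjusted p of 0.051. Pros1 averaged 2.57 ± 0.299 in controls, 2.63 ± 0.769 in M500, 2.32 ± 0.0757 in M2000, 2.28 ± 0.219 in P500 and 2.48 ± 0.166 in P2500. Serpinc1 encodes antithrombin and averaged 4.78 ± 0.545 in controls, 4.95 ± 1.23 in M500, 4.35 ± 0.270 in M2000, 4.45 ± 0.0696 in P500, 4.50 ± 0.412 in P2500, 4.28 ± 0.214 in T500 and 5.15 ± 0.656 in T1800. Its difference from controls in T1800, 0.361 (95% interval -0.423 to 1.14), was small beside the spread of the arrays. Serpind1, heparin cofactor, differed from controls by -0.278 to 0.0765 over the 6 groups. Serpina5, the protein C inhibitor, lay near 0 in every group: -0.0755 ± 0.102 in controls, 0.0240 ± 0.153 in M500, 0.00152 ± 0.101 in M2000, -0.0190 ± 0.150 in P500, 0.00667 ± 0.0833 in P2500, -0.0826 ± 0.0855 in T500 and 0.000542 ± 0.110 in T1800.

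All 3 fibrinolysis genes were measured. Serpinf2, the chief plasmin inhibitor of plasma, scored 4.19, 3.57, 3.53 and 3.77 in T1800 and 2.95, 2.87, 3.20, 2.94 and 2.90 in T500. Controls ran from 3.08 over 3.51 to 3.99. The doses did not overlap, and the difference was 0.792 (SE 0.252, adjusted p = 0.027), or 0.258 (adjusted p = 0.077) after quantile normalisation. Serpinf2 was also the gene of smallest p in T500 (-0.585, SE 0.220, adjusted p = 0.102) and in P2500 (-0.439, SE 0.235, adjusted p = 0.287) against controls. Its other means were 3.59 ± 0.760 (M500), 3.07 ± 0.201 (M2000), 3.24 ± 0.268 (P500) and 3.12 ± 0.281 (P2500). Plg, plasminogen, averaged 4.62 ± 0.433 in controls, 4.77 ± 1.02 in M500, 4.25 ± 0.272 in M2000, 4.35 ± 0.0741 in P500, 4.37 ± 0.418 in P2500, 4.17 ± 0.200 in T500 and 4.89 ± 0.515 in T1800. Cpb2, which protects fibrin from plasmin, differed from controls by -0.182 to 0.266. Serping1 (C1 inhibitor), Serpina1 (antitrypsin) and Vtn (vitronectin) passed in no comparison, and in T1800 they differed from controls by 0.209, 0.385 and 0.374, and by -0.130, -0.0501 and -0.0522 after quantile normalisation.

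The start of the classical complement pathway gave the largest T1800 scores relative to controls. C1r and C1s are the proteases of the C1 complex. C1r scored 4.34, 3.49, 3.64 and 3.56 in T1800, 2.90, 2.75, 2.89, 2.84 and 2.94 in T500, and from 2.90 over 3.29 to 3.73 in controls. C1s scored 4.92, 3.95, 4.41 and 4.04 in T1800, 3.57, 3.32, 3.44, 3.44 and 3.37 in T500, and from 3.42 over 3.73 to 4.28 in controls. Both were separate between the doses and overlapped with controls. Between T1800 and T500 the difference was 0.890 (SE 0.241, adjusted p = 0.013) for C1r and 0.904 (SE 0.266, adjusted p = 0.019) for C1s. Against controls it was 0.483 (SE 0.225, adjusted p = 0.429) and 0.537 (SE 0.248, adjusted p = 0.420). Between the doses C1r no longer passed with the 3′-5′ covariate (0.370, adjusted p = 0.454). Nor did it pass with the animal-number series as a block (1.02, adjusted p = 0.060).

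These 2 neighbouring genes kept a positive difference after quantile normalisation. T1800 arrays then scored 3.54, 3.37, 3.39 and 3.37 for C1r, and controls 3.03 to 3.32. The groups did not overlap, but without the share of all probe sets this does not set C1r apart. The difference from controls was 0.256 (adjusted p = 0.098) for C1r and 0.232 (adjusted p = 0.066) for C1s, and from T500 0.348 (adjusted p = 0.013) and 0.237 (adjusted p = 0.030). On the same scale the 4 control arrays of high 3′-5′ difference exceeded the other 3 by 0.121 for C1r and 0.0693 for C1s. Within M500 the 2 such arrays exceeded the other 3 by 0.142 for C1r and 0.0346 for C1s. In M500, M2000, P500 and P2500, the deposited C1r score averaged 3.23 ± 0.703, 2.84 ± 0.127, 2.90 ± 0.103 and 2.97 ± 0.276, and that of C1s 3.79 ± 0.765, 3.33 ± 0.179, 3.45 ± 0.0305 and 3.45 ± 0.365.

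Masp1, a protease of the lectin pathway, scored 2.67, 1.90, 2.12 and 1.99 in T1800 and 1.88, 1.63, 1.82, 1.57 and 1.54 in T500, without overlap. Controls ran from 1.78 over 1.89 to 2.00. The difference between the doses was 0.482 (SE 0.130, adjusted p = 0.013), and 0.143 (adjusted p = 0.281) after quantile normalisation. The probe sets of this gene disagreed: of the other 2, 1 had a T1800 minus T500 difference of -0.510 (adjusted p = 0.037) and 1 differed by -0.0341. Masp1 averaged 1.77 ± 0.338 in M500, 1.70 ± 0.0470 in M2000, 1.82 ± 0.101 in P500 and 1.80 ± 0.122 in P2500. Masp2, its companion protease, differed from controls by -0.0485 to 0.126. Its probe sets disagreed too: between the triadimefon doses the one used here differed by 0.118 and another by -0.274.

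C3, where all complement pathways meet, averaged 5.12 ± 0.563 in controls, 5.27 ± 1.29 in M500, 4.66 ± 0.281 in M2000, 4.72 ± 0.0299 in P500, 4.84 ± 0.489 in P2500, 4.57 ± 0.246 in T500 and 5.57 ± 0.729 in T1800. On single arrays it scored 6.56, 5.09, 5.68 and 4.96 in T1800 and 4.84, 4.35, 4.83, 4.39 and 4.44 in T500, without overlap. The difference of 1.002 between the doses was the largest of the 34 genes but had a standard error of 0.435 and an adjusted p of 0.086. After quantile normalisation it was 0.0478. Cfd, the factor D protease of the alternative pathway, differed by 0.361 between the doses (adjusted p = 0.074). The shared Cfb/C2 probe set, for a protease of the C3 convertase in either pathway, differed by 0.956 (SE 0.322, adjusted p = 0.033) between the doses, or 0.282 (adjusted p = 0.016) after quantile normalisation. On that scale its difference from controls was -0.309 in T500 (adjusted p = 0.032) and -0.264 in P2500 (adjusted p = 0.042). The normalised Cfb/C2 score was also 0.224 higher on the 4 control arrays of high 3′-5′ difference (4.04 to 4.21) than on the other 3 (3.79 to 4.12), and neither T500 nor P2500 had such an array.

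The mannose-binding lectins recognise sugars on microbes. Mbl1 was one of few genes not lower in the groups where the rest were. It averaged 2.48 ± 0.199 in controls, 2.52 ± 0.132 in M500, 2.59 ± 0.200 in M2000, 2.72 ± 0.0674 in P500, 2.71 ± 0.126 in P2500, 2.56 ± 0.153 in T500 and 2.53 ± 0.491 in T1800. The differences of 0.239 in P500 (SE 0.152, adjusted p = 0.568) and 0.233 in P2500 (SE 0.138, adjusted p = 0.332) were not called. After quantile normalisation Mbl1 differed from controls by 0.387 in M2000, 0.388 in P500, 0.381 in P2500 and 0.326 in T500, and by -0.132 in T1800, with adjusted p from 0.187 to 0.852. Within the controls and within M500 the normalised score was lower on arrays of high 3′-5′ difference. The cause of the group differences was not tested. The 4 control arrays of high difference had a normalised Mbl1 score of 1.98 to 2.40 and the other 3 controls 2.67 to 2.71, and in M500 the values were 1.89 to 2.21 and 2.75 to 2.84. Arrays of M2000, P500, P2500 and T500, none of which had a high difference, scored 2.60 to 2.87. Mbl2 differed from controls by -0.374 to 0.277. Between T1800 and T500 this probe set of Mbl2 differed by 0.651 (adjusted p = 0.057) and its other probe set by -0.00273.

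In the terminal pathway C6 stood apart on the deposited scores. This protein is the second component to join the membrane attack complex. Its score was 2.42, 1.98, 2.12 and 1.55 on the T1800 arrays, against 2.02, 2.51 and 2.85 (lowest, median, highest) in controls and 2.68, 2.18, 2.81, 2.59 and 2.47 in T500. The T1800 arrays were the lowest as a group, though 3 of 7 controls and 1 of 5 T500 arrays lay below the highest of them. The other groups averaged 2.32 ± 0.156 (M500), 2.21 ± 0.0827 (M2000), 2.46 ± 0.163 (P500) and 2.47 ± 0.250 (P2500). The difference from T500 was -0.528 (SE 0.154, adjusted p = 0.019) and from controls -0.487 (SE 0.144, 95% interval -0.783 to -0.191, adjusted p = 0.107). The difference from T500 no longer passed without T1800 replicate 4 (-0.372, adjusted p = 0.091), with the animal-number series as a block (-0.334, adjusted p = 0.294), with the 3′-5′ covariate (-0.491, adjusted p = 0.232) or in a fit of the 2 groups alone (-0.528, adjusted p = 0.057). It was far smaller among animals below 3000 (-0.127, adjusted p = 0.721) and without arrays of high 3′-5′ difference (-0.127, adjusted p = 0.686), where T1800 replicate 1 is again the lone T1800 array. C6 and C4bpb were the only 2 of the 34 genes with a T1800 score below controls.

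After quantile normalisation C6 differed from controls by -0.618 (adjusted p = 0.037) and from T500 by -0.900 (adjusted p = 0.0039), with T1800 arrays at 2.07, 1.88, 1.96 and 1.38 and T500 arrays from 2.45 to 2.97. With the 3′-5′ difference as covariate the difference from controls was -0.479 (adjusted p = 0.096). Over 22 alternatives it stayed negative, from -0.620 to -0.121, and passed in 3: quantile normalisation, without control replicate 5 and without T1800 replicate 1. The 2 smallest came from animals below 3000 (-0.145) and without arrays of high 3′-5′ difference (-0.121), and both rest on T1800 replicate 1 alone. Among animals above 3000 the value was -0.541 (adjusted p = 0.798). On the normalised scale the control arrays of high 3′-5′ difference scored 1.88 to 2.93 and the other 3 2.53 to 2.61. In M500 the 2 arrays of high difference scored 1.97 to 2.06 and the other 3 2.29 to 2.70, without overlap and with a mean difference of -0.4665.

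**Figure D4:**
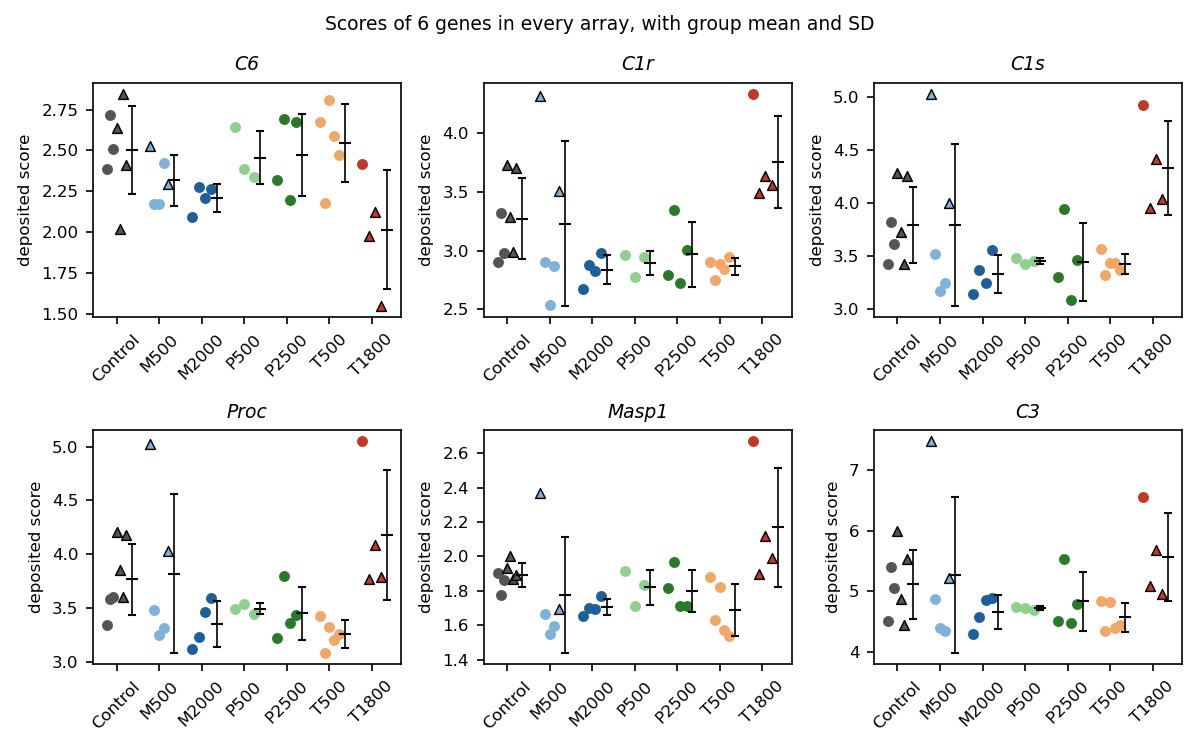
Deposited scores (y axis) of C6, C1r, C1s, Proc, Masp1 and C3 on every array by group (x axis); triangles are arrays with a GAPDH 3′-5′ difference above 0.9 and black bars are group means with standard deviations. For C6 3 of 4 T1800 arrays lie at or below 2.12, while for C1r, C1s and Proc replicate 1 of M500 and of T1800 are the highest points.

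The remaining terminal components followed the common shift. C8a, a chain of the pore-forming C8 complex, scored 3.70, 3.09, 3.34 and 3.10 in T1800 and 2.89, 2.62, 2.66, 2.73 and 2.86 in T500. Controls ran from 2.92 over 3.16 to 3.46, and T500 did not overlap with either group. The difference between the doses was 0.558 (SE 0.202, adjusted p = 0.045), and 0.0722 (adjusted p = 0.633) after quantile normalisation. C8a averaged 3.08 ± 0.623 in M500, 2.76 ± 0.166 in M2000, 2.83 ± 0.236 in P500 and 2.83 ± 0.219 in P2500. Its neighbour C8b and the third chain C8g passed in no comparison. C8b had the largest negative difference of the 34 genes in M2000, -0.607 (SE 0.338, adjusted p = 0.259).

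C5, whose cleavage starts the membrane attack complex, scored 2.36, 2.49, 2.49 and 2.54 in M2000 and from 2.56 over 2.90 to 3.49 in controls, without overlap. The difference of -0.462 (SE 0.201) had an adjusted p of 0.167. C5 averaged 2.83 ± 0.663 in M500, 2.57 ± 0.0745 in P500, 2.63 ± 0.170 in P2500, 2.55 ± 0.0679 in T500 and 3.11 ± 0.116 in T1800. C9, which polymerises into the pore, averaged 4.38 ± 0.474 in controls, 4.51 ± 1.26 in M500, 3.91 ± 0.278 in M2000, 4.00 ± 0.0216 in P500, 4.13 ± 0.279 in P2500, 3.90 ± 0.249 in T500 and 4.55 ± 0.133 in T1800. Of the complement regulators, C4bpb, the chain of the C4b-binding protein that carries protein S, averaged 3.46 ± 0.306 in controls, 3.35 ± 0.712 in M500, 3.12 ± 0.209 in M2000, 3.08 ± 0.134 in P500, 3.17 ± 0.356 in P2500, 3.05 ± 0.219 in T500 and 3.33 ± 0.254 in T1800. C4bpa and Cfi, the protease factor I, differed from controls in T1800 by 0.290 and 0.294, and by -0.0707 and -0.114 after quantile normalisation. None of the 3 regulators passed in any comparison.

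The dose comparisons of the other compounds gave no calls. Between P2500 and P500, 0 of 34 genes and 0% of all probe sets were called by limma, with 0 of the genes and 1.18% of the probe sets at an unadjusted p under 0.05. Between M2000 and M500, 0 of 34 genes and 0% of probe sets were called. There 32 of 34 genes were lower at the high dose, with a median difference of -0.421, and the bright probe sets had a median of -0.371. When arrays of high 3′-5′ difference were left out, 2 of them in M500, the median was 0.0669. After quantile normalisation 17 genes were higher and 17 lower, with a median of 0.000567.

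At the matched level of 500 ppm the 3 compounds were compared in pairs, and 0 of 34 genes passed in each of the 3 comparisons. Of all probe sets, 0% were called between M500 and P500, 0% between M500 and T500 and 0% between P500 and T500. At an unadjusted p under 0.05 the counts of genes were 0, 4 and 0, against 4.29%, 19.1% and 2.49% of all probe sets. The 4 genes of M500 against T500 were Serpinf2 (0.618, 95% interval 0.131 to 1.105), Proc (0.560, 0.0401 to 1.079), F10 (0.505, 0.0307 to 0.978) and Mbl2 (0.503, 0.0170 to 0.988), with adjusted p from 0.239 to 0.254. The median differences of the 34 genes were 0.324, 0.364 and 0.135, and 0.0192, 0.000401 and 0.0138 after quantile normalisation. The high doses differ between compounds and were not compared.

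Genes around the cascades were read from lists of fibrinogen, further coagulation and fibrinolysis genes, the vitamin K cycle, further complement genes, complement and protease-activated receptors, hepatocyte transcription factors and interleukin-6 signalling. Against controls, none passed in 5 of the 6 groups on the deposited scores. In T1800, where 1.17% of all probe sets were called, 2 of 12 measured interleukin-6 and acute phase genes were higher. They were Lbp, the lipopolysaccharide-binding protein, by 0.770 (SE 0.159, adjusted p = 0.0097) and Lcn2, lipocalin, by 0.236 (SE 0.0563, adjusted p = 0.030). After quantile normalisation Lcn2 passed (0.205, adjusted p = 0.037) and Lbp did not (0.604, adjusted p = 0.075). On that scale 2 genes of these lists were lower in P2500, the protein C receptor Procr (-0.209, adjusted p = 0.035) and the acute phase gene Itih4 (-0.194, adjusted p = 0.022). Of all probe sets 1% were called there. The 3 fibrinogen chains Fga, Fgb and Fgg passed in no comparison on these scores, and their median T1800 difference was 0.261. The vitamin K carboxylase Ggcx, which matures F2, F9, F10, Proc and Pros1, differed by 0.155 (adjusted p = 0.778).

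Between T1800 and T500, where 24.8% of all probe sets were called, the counts were 0 of 3 fibrinogen chains, 3 of 10 further coagulation genes, 1 of 5 fibrinolysis genes and 0 of 3 vitamin K genes. They were 4 of 11 further complement genes, 1 of 7 complement receptors, 0 of 4 protease-activated receptors, 5 of 11 hepatocyte factors and 5 of 12 interleukin-6 genes. All of these were higher at T1800. The complement genes were C1qa (0.567), C1qc (0.592), Cfp (0.457) and Colec11 (0.607). The hepatocyte factors were Hnf4a (0.999), Cebpa (0.626), Cebpb (0.755), Cebpd (0.243) and Nr5a2 (0.352), of which Hnf4a and Cebpd also passed after quantile normalisation. On that scale, where 9.67% of all probe sets were called, the calls were 2 further coagulation genes, 0 fibrinolysis genes and 0 complement receptors. Of the 4 complement genes only Cfp passed (0.351, adjusted p = 0.037), with C1qa at 0.260, C1qc at 0.350 and Colec11 at 0.269. Of the interleukin-6 genes only Lcn2 did (0.210, adjusted p = 0.020). The fibrinogen median turned from 0.661 to -0.148, and Fgg was called lower (-0.116, adjusted p = 0.042).

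Markers of liver cell types were read beside the 24.8% of all probe sets called between T1800 and T500. Of 6 Kupffer cell markers 5 were higher in T1800 than in T500, among them Clec4f (0.922, adjusted p = 0.0073) and Csf1r (0.504, adjusted p = 0.0027), and 3 after quantile normalisation. The mean score of the 6 ran from 1.48 to 1.98 in T1800, from 0.746 to 1.47 in T500 and from 1.01 to 1.71 in controls. For stellate cells 3 of 6 markers were higher, with means of 0.951 to 1.13 in T1800 and 0.668 to 0.862 in T500. For sinusoidal endothelium it was 2 of 5 and for bile duct 1 of 3 (Epcam, 0.585, with Krt19 and Krt7 near or below 0 in every group). Among leukocyte markers 1 of 5, Cd3e, was higher, at scores near 0. Hepatocyte markers passed in 1 of 7 (Hnf4a), and testis markers in 0 of 9. After quantile normalisation, where 9.67% of all probe sets were called, 1 marker each passed for stellate cells, sinusoidal endothelium, bile duct, leukocytes and hepatocytes. Against controls, the T1800 scores of Epcam (0.720, adjusted p = 0.00079) and Col1a2, a collagen chain (0.313, adjusted p = 0.041), were higher. In that comparison 1.17% of all probe sets were called. The calls were 0 of 6 Kupffer, 0 of 5 endothelial, 0 of 5 leukocyte, 0 of 7 hepatocyte and 0 of 9 testis markers. After quantile normalisation Epcam passed (0.648, adjusted p = 0.00083) and Col1a2 did not (0.251, adjusted p = 0.142). The part of these cells in the complement and coagulation results was not tested.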

How the data were processed

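Liver RNA of single rats was measured on an Affymetrix rat expression array, according to the labels' protocols. What the authors deposited is a score for each of 31099 probe sets on each array; no source used here states the summary, normalisation or centring behind it. The 57 Affymetrix control probe sets were left out of the tests, which left 31042. Gene names came from the platform annotation.

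All 7 groups entered 1 linear model on the deposited scores (limma 3.58.1 in R 4.3.3, lmFit and eBayes at defaults, 25 residual degrees of freedom, prior 1.99). 12 comparisons were tested two-sided, with Benjamini-Hochberg adjustment over all probe sets within each, at 0.05. The code was tested on simulated scores. The members and lists were chosen with earlier results of these data known. Values are given for every member past 0.05, the 5 of smallest p in each treated group, and F2, F9, Serpinc1, Plg, C3, C9, Mbl1 and the shared Cfb probe set. Other members are given by difference or range. From each list, the genes past 0.05 are counted or named, and otherwise those of smallest p may be given as values.

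Alternatives were quantile normalisation, scaling of the array spread, a filter on the dimmest 40%, the replicate number or animal-number series as block, the 3′-5′ difference as covariate, subsets of arrays, a trended robust prior, fits of 2 groups and each array left out. The bright probe sets (mean above 2.5) and the values of arrays of high 3′-5′ difference beside the others of their group were added after the data were seen. Replicate numbers were not treated as pairing the animals. Of 46 same-numbered pairs, 19 had a correlation above 0.1. Differently numbered pairs were not set beside them, so these values cannot decide whether the numbers pair animals. The number of arrays limits the precision.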

Additional observations from a re-analysis of the deposited data

Results flagged for a closer look

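Single arrays far from the rest of their group were looked for in 150 series of values (the named genes, the mean shift of the 34 genes before and after quantile normalisation and the 3′-5′ difference, in groups of 4 to 7 arrays), and 8 were found; chance gives about 1 in 20. In M500 replicate 1 was the highest array for C3 (7.49), Klkb1 (4.95) and Masp1 (2.37), and it was also the array of largest mean shift. Klkb1 was far highest in P2500 replicate 2 (3.41) and in T500 replicate 1 (3.38). The others were F5 in M2000 replicate 4 (2.67), Serpinf2 in T500 replicate 3 (3.20) and C9 in T1800 replicate 3 (4.75). Without M500 replicate 1, the F9 difference between M500 and controls was -0.154 in place of 0.140. F9 was called in neither fit.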

How the results depend on the processing

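The counts of genes called stayed at 0 under every alternative run for P2500, M2000, P500 and M500 against controls and for the dose and compound comparisons other than T1800 against T500. For T1800 against controls 0 became 1 after quantile normalisation, 4 among animals below 3000 (7.93% of all probe sets), 23 without arrays of high 3′-5′ difference (17.7%), and 0 to 1 with 1 array left out. For T500 against controls it was 0 to 1 with 1 array left out (1 without control replicate 3, with 14.4% of all probe sets). For T1800 against T500 the 10 became 5 after quantile normalisation (9.67% of all probe sets), 1 with the number series as block (2.46%), 20 in a fit of the 2 groups alone (25.4%), 0 with the 3′-5′ covariate (0.283%), 26 without arrays of high 3′-5′ difference (23.5%), and 4 to 10 with 1 array left out. The replicate block, although it is not known whether numbers pair animals, gave 13 for that comparison and 0 for the other 11.

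Signs turned in these cases, and the cause was not tested. After quantile normalisation, T1800 minus control was -0.0723 (F2), -0.136 (F9), -0.0389 (Serpinc1), -0.101 (Plg), -0.121 (C9) and -0.132 (Mbl1), and T1800 minus T500 was -0.268 (F9) and -0.0314 (Plg). With the 3′-5′ covariate, values were -0.00980 (C9, T1800 minus control), 0.00359 (Serpinf2, P2500), 0.0360 (Klkb1, P2500), 0.0141 (C5, P500), and for T1800 minus T500 -0.0731 (F9), -0.249 (C9) and 0.209 (Mbl1). Mbl1 was -0.0246 in T1800 with the replicate block. Between T1800 and T500 it was 0.287 with the number series as block and 0.559 both below 3000 and without arrays of high 3′-5′ difference. F9 in M500 was -0.313 without those arrays. The other Masp1 probe sets gave -0.118 and -0.0657 (T1800 minus control), 0.0144 (M500) and -0.510 and -0.0341 (T1800 minus T500).

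With 1 array left out, T1800 minus control ran from -0.00223 to 0.517 (F2), -0.0267 to 0.184 (F9) and -0.147 to 0.237 (Mbl1), M500 minus control from -0.154 to 0.306 (F9), and T1800 minus T500 from -0.226 to 0.158 (Mbl1).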
